A study of Mus musculus with 54 samples.

Results

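Cd80, Cd86, Cd40, Cd274, Pdcd1lg2, Icosl, Cd200r1 and Havcr2 are 8 genes for surface proteins through which macrophages send or receive co-stimulatory and checkpoint signals, and they were chosen by their symbols out of 39179 genes counted in mouse peritoneal macrophages. All 8 were found under a single identifier, and all 8 passed the filter on low counts in both RNA sequencing experiments. The cells were adherent peritoneal exudate cells of C57BL/6 mice aged 8 to 20 weeks, collected 4 days after an injection of thioglycolate, which draws macrophages into the peritoneum. In the polarization experiment (18 libraries), cells of 3 mice were kept for 24 h without a stimulus (M0), with LPS at 100 ng/ml plus IFNγ at 50 ng/ml (M1-like) or with IL-4 at 10 ng/ml (M2-like). Each mouse and condition had 2 technical replicates, whose reads were added up. In the reprogramming experiment (36 libraries, 12 conditions with 3 replicates each), M0, M1-like and M2-like macrophages were sequenced without transfection and after mock transfection. M2-like macrophages, polarized for 24 h and then cultured without IL-4, were also transfected with a negative siRNA pool, with siRNA pools against E2f1, Myc, Pparg or Stat6, or with these 4 pools combined, which gave the induced M1-like (iM1) macrophages. RNA of the transfected cells was taken 48 h after transfection. For the untransfected cells of this experiment the harvest time is not given in the sources used here. Whether LPS and IFNγ were still present at harvest in the M1-like cells is not given either. The study's methods call the 3 replicates of M0, M1-like, M2-like and iM1 cells biological. For the mock and other siRNA conditions the sources used here do not say whether replicates came from separate mice or cultures. The spread between these samples may therefore be technical. All conditions of this experiment share an estimate of the spread, so all its p-values rest partly on these samples.

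An antigen-presenting cell activates a T cell fully only when peptide on its MHC molecules is seen together with a second, co-stimulatory signal. CD80 and CD86, encoded by Cd80 and Cd86, give this signal through CD28 on the T cell and also bind the inhibitory receptor CTLA-4, and the ICOS ligand (Icosl) does so through ICOS. CD40 (Cd40) works in the other direction: it receives CD40 ligand from activated T cells and drives the macrophage to present antigen and secrete cytokines. PD-L1 (Cd274) and PD-L2 (Pdcd1lg2) bind PD-1 on T cells and restrain them. The CD200 receptor (Cd200r1) and TIM-3 (Havcr2) are checkpoint receptors on the macrophage itself. Within macrophages, LPS and IFNγ act largely through NF-κB and IRF factors, and IL-4 through STAT6.

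In GRCm38 (GENCODE M21), Cd80, Cd86 and Cd200r1 lie on chromosome 16 at 38455561 to 38496335, 36603869 to 36666081 and 44765736 to 44794978, Cd86 on the minus strand and the other two on the plus strand. Cd40 lies on chromosome 2 at 165055627 to 165072948, Icosl on chromosome 10 at 78069302 to 78083913 and Havcr2 on chromosome 11 at 46454935 to 46481255, all on the plus strand. The genes of the PD-1 ligands are neighbours on the plus strand of chromosome 19, with Cd274 at 29367455 to 29388095 and Pdcd1lg2 at 29410919 to 29471161, and 22823 bases separate the end of the first from the start of the second. Exons of Cd274 overlap the antisense gene AC119228.1, for which no counts were used here. Pdcd1lg2 overlaps the antisense gene A930007I19Rik without shared exon bases. Since the strand setting of the counting is not given in the sources used here, reads of Cd274 and its antisense partner cannot be told apart.

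The promoters of the neighbouring PD-1 ligand genes are shown because IL-4 moved both genes by very unequal amounts (log2 fold changes of 0.70 for Cd274 and 5.65 for Pdcd1lg2 at 24 h). Each runs from 250 bases before to 50 bases after the RefSeq start (GRCm38.p6, plus strand, Cd274 at chr19:29367188-29367487 and Pdcd1lg2 at chr19:29410669-29410968), and capitals mark a STAT6-type motif.
Cd274: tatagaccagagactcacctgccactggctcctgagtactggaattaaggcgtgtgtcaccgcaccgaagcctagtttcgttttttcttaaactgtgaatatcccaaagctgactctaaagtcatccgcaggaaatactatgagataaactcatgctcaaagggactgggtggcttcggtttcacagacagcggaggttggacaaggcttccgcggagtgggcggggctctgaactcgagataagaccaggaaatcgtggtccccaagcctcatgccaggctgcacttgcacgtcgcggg
Pdcd1lg2: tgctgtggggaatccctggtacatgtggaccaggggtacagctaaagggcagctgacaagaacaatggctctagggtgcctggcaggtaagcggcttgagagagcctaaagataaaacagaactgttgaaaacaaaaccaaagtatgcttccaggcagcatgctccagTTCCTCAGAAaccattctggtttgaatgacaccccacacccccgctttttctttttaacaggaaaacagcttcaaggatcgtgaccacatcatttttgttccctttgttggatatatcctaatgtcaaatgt
RefSeq promoters were matched for 5 of the 8 genes (Cd80, Cd274, Pdcd1lg2, Icosl and Havcr2) and searched on both strands for a STAT6-type motif (TTC, 4 free bases, GAA), an IRF-type core (GAAA, 2 free bases, GAAA), a κB-type motif (GG, 2 free bases, TTTCC) and an E-box (CACGTG). The only match among these promoters and motifs was the STAT6-type motif that begins 82 bases before the start of Pdcd1lg2. The same motif was found in 6.95% of 32851 promoters of this length, against 3.44% for the IRF-type core, 5.82% for the κB-type motif and 7.15% for the E-box. A match describes letters in this window only, and no binding was measured.

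Samples were judged first. Counted reads per sample ran from 39577911 to 59443987 in the polarization experiment and from 13421854 to 19704195 in the reprogramming experiment, so that low genes are measured less firmly in the latter. The lowest mean correlation of a library with the others of its condition, across genes on the log2 scale, was r = 0.984, and no library stood apart. All 6 macrophage markers checked (among them Lyz2, Cd68 and Adgre1) averaged above 1 CPM, which is the read count scaled to library size, in all 15 conditions. The 6 T cell markers summed to at most 6.36 CPM in any sample, the 6 B cell markers to at most 37.8 CPM and the 6 dendritic cell markers to at most 40.5 CPM. The siRNA pools lowered their targets. Relative to the M2-like mock mean, E2f1 was at 18.9% ± 3.03 (SD, n = 3), Myc at 35.4% ± 7.45, Pparg at 24.1% ± 2.82 and Stat6 at 27.9% ± 5.91 with the pool against each. With the combined pool these genes were at 45.2% ± 1.5, 36.8% ± 2.97, 31.0% ± 2.46 and 55.1% ± 4.92, and with the negative pool E2f1 was at 74.8% ± 9.2.

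The polarization experiment asks how the 2 stimuli set these genes apart after 24 h. LPS and IFNγ raised 6 of the 8 genes over M0 and lowered Cd200r1 and Havcr2, where 35.4% of the 16110 genes tested rose and 37.5% fell (edgeR's quasi-likelihood test, Benjamini-Hochberg adjusted p under 0.05 over all genes tested, which defines a call throughout). The median size of the log2 fold change was 4.03 for the 8 genes and 0.579 for all genes. IL-4 raised 3 of them (Pdcd1lg2, Cd274 and Cd40) and lowered 4 (Icosl, Havcr2, Cd86 and Cd80), against 13.5% and 14.4% of all genes. Between M1-like and M2-like macrophages all 8 differed, 5 higher and 3 lower in M1-like cells, against 34.6% and 38.1% of all genes. In bulk RNA, fewer cells with a transcript and less of it per cell cannot be told apart, here and in all that follows.

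**Figure D1:**
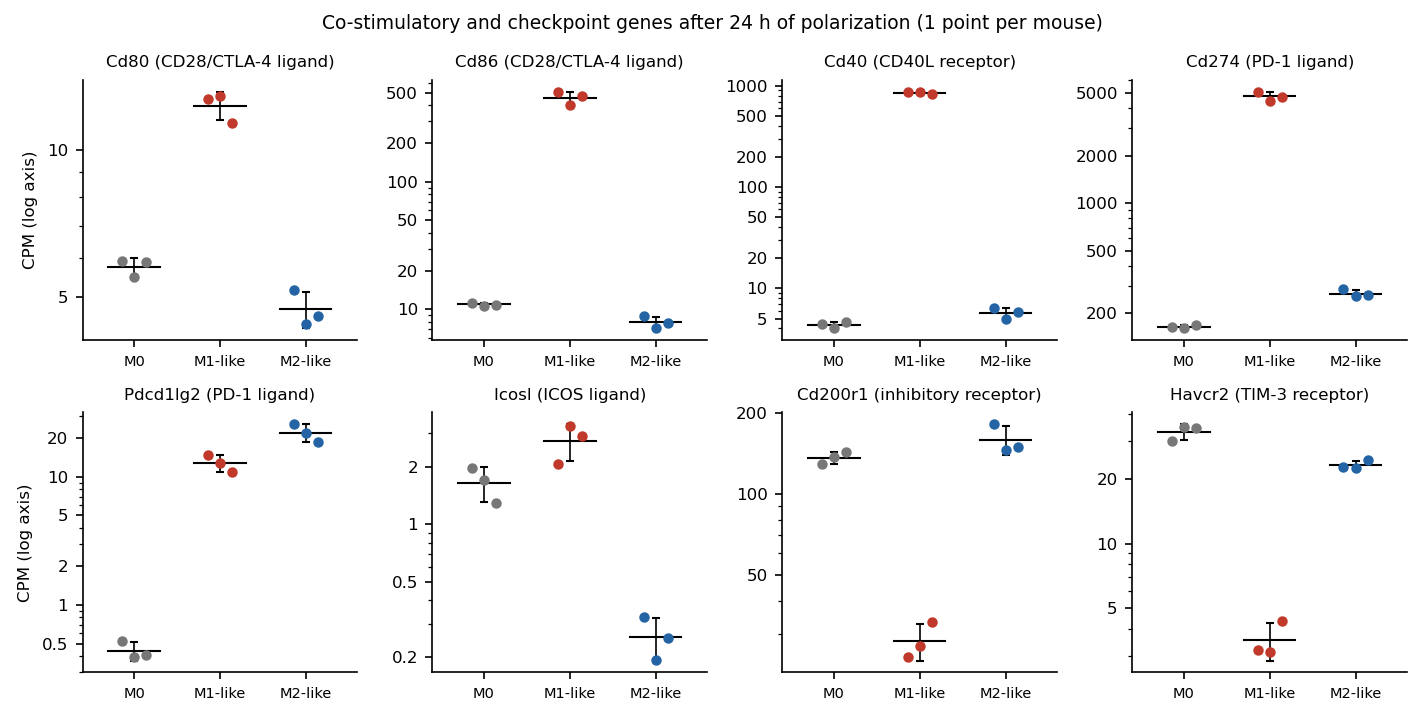
Level of each gene in CPM (log axis) in the summed sample of each of 3 mice after 24 h without stimulus (M0), with LPS and IFNγ (M1-like) or with IL-4 (M2-like), with 1 point per mouse, the line at the mean and bars of 1 SD. Cd40, Cd86 and Cd274 stand far higher in M1-like cells, Pdcd1lg2 is high under both stimuli, and Cd200r1 and Havcr2 are lowest in M1-like cells.

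Of the CD28 ligands, Cd86 moved far more than Cd80. Cd86 measured 11.3, 10.6 and 10.9 CPM in M0 macrophages of mice 1, 2 and 3, 502, 404 and 468.5 CPM in M1-like and 8.82, 7.19 and 7.76 CPM in M2-like macrophages. The 3 conditions did not overlap, and M1-like cells stood above M0 by 5.39 ± 0.11 on the log2 scale (SE, adjusted p = 8.98e-13), a 41.9-fold difference, while M2-like cells stood slightly below (-0.47 ± 0.10, adjusted p = 0.00419). Cd80 measured 5.92, 5.48 and 5.90 CPM in M0, 12.7, 12.9 and 11.4 CPM in M1-like and 5.16, 4.40 and 4.57 CPM in M2-like macrophages, which is a 2.14-fold rise with LPS and IFNγ (log2 fold change 1.09 ± 0.09, adjusted p = 4.85e-07). With IL-4 Cd80 fell by 0.30 on the log2 scale (SE 0.10, adjusted p = 0.0407). That last call was lost without the filter on low counts (adjusted p = 0.0787), when only M0 and M2-like samples were fitted (0.0586), and without mouse 1, 2 or 3 of M0 or mouse 2 or 3 of M2-like, where values ran from -0.25 to -0.33.

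Cd40, the receptor for T cell help, showed the largest rise of the 8 genes with LPS and IFNγ. It went from 4.44, 4.01 and 4.63 CPM in M0 to 863, 866 and 831 CPM in M1-like macrophages, a 196-fold difference (log2 fold change 7.61 ± 0.11, adjusted p = 1.49e-13). M2-like macrophages held 6.34, 4.91 and 5.77 CPM, each above every M0 sample but close to them (log2 fold change 0.37 ± 0.10, adjusted p = 0.0131). Without the M0 sample of mouse 2 this small rise missed the threshold (0.32, adjusted p = 0.0672).

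The PD-1 ligands rose together with LPS and IFNγ but parted with IL-4. Cd274, already abundant in M0 cells with 163, 162 and 168.5 CPM, reached 5066, 4449 and 4720.0 CPM in M1-like macrophages (log2 fold change 4.85 ± 0.08, adjusted p = 2.79e-13). With IL-4 it measured 286, 256.5 and 260.0 CPM, a 1.63-fold rise (0.70 ± 0.07, adjusted p = 2.21e-05). Pdcd1lg2 was close to absent in M0 with 0.520, 0.392 and 0.404 CPM, which are 26, 21 and 22 reads. It rose to 14.9, 12.9 and 11.0 CPM with LPS and IFNγ (4.87 ± 0.19, adjusted p = 3.48e-10) and to 25.7, 22.0 and 18.5 CPM with IL-4 (5.65 ± 0.19, adjusted p = 4.27e-09). It was the only one of the 8 genes that was higher in M2-like than in M1-like cells and at the same time raised by both stimuli, with 1.72-fold more in M2-like cells (M1-like minus M2-like -0.78 ± 0.13 on the log2 scale, adjusted p = 0.000187).

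Icosl was low throughout and was set apart mainly by IL-4. M0 macrophages held 1.98, 1.70 and 1.29 CPM (99, 91 and 70 reads), M1-like 2.08, 3.27 and 2.89 CPM and M2-like 0.324, 0.194 and 0.254 CPM (14, 11 and 14 reads). IL-4 lowered it 6.48-fold (log2 fold change -2.69 ± 0.27, adjusted p = 2.98e-05), and LPS with IFNγ raised it 1.67-fold (0.74 ± 0.20, adjusted p = 0.00612).

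The inhibitory receptors on the macrophage fell with LPS and IFNγ. Cd200r1 went from 129, 138 and 143 CPM in M0 to 24.6, 27.1 and 33.3 CPM in M1-like cells (log2 fold change -2.27 ± 0.12, adjusted p = 3.37e-09), and in M2-like cells it measured 182, 146 and 149.5 CPM, which did not pass the test against M0 (0.22 ± 0.11, adjusted p = 0.15). Havcr2 went from 29.9, 35.0 and 34.6 CPM in M0 to 3.19, 3.12 and 4.37 CPM in M1-like cells, 9.24-fold lower (-3.21 ± 0.12, adjusted p = 2.1e-10). In M2-like cells Havcr2 stood at 22.7, 22.5 and 24.4 CPM, below every M0 sample (-0.52 ± 0.10, adjusted p = 0.00315). For both genes M1-like samples lay below all others.

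Set per kb of exon, so that genes can be compared, the mean level in M0 macrophages was highest for Cd274 (45.4 CPM per kb), followed by Cd200r1 (40.8) and Havcr2 (12.2), with Cd86 (2.99), Cd80 (1.56), Cd40 (1.28), Icosl (0.358) and Pdcd1lg2 (0.224) far below. With LPS and IFNγ the order became Cd274 (1310.0 CPM per kb), Cd40 (251), Cd86 (125), Cd200r1 (8.47), Pdcd1lg2 (6.57), Cd80 (3.33), Havcr2 (1.31) and Icosl (0.595). With IL-4 it was Cd274 (73.8 CPM per kb), Cd200r1 (47.6), Pdcd1lg2 (11.3), Havcr2 (8.53), Cd86 (2.16), Cd40 (1.67), Cd80 (1.27) and Icosl (0.0557). Cd274 thus led in each of these conditions at 24 h, and Cd80 stayed below Cd86 in each. This did not hold throughout the reprogramming experiment. There Cd200r1 (35.8 CPM per kb) stood above Cd274 (31.4) in untransfected M0 cells. Cd80 (1.60) stood above Cd86 (1.07) in untransfected M2-like cells.

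The reprogramming experiment held M1-like and M2-like macrophages in other libraries and with another read type. Its transfected cells were harvested 48 h after transfection, and for its untransfected cells the time is not given. The 2 experiments were therefore never put in 1 model, and time, sequencing provider and read type cannot be told apart between them. In untransfected cells, M1-like macrophages stood above M0 for 5 of the 8 genes and below for 1, against 29.0% and 28.7% of the 14172 genes tested. M2-like against M0 gave 3 higher and 3 lower, against 10.7% and 9.19%, and M1-like against M2-like gave 6 higher and 2 lower, against 31.3% and 30.2%. After mock transfection, M1-like against M2-like again gave 6 higher and 2 lower, against 30.9% and 29.8%. In the mock comparison the call of Pdcd1lg2 (-1.31 ± 0.42, adjusted p = 0.00721) was lost without M1-like mock replicate 2 (-1.05, adjusted p = 0.0509) or M2-like mock replicate 2 (-0.93, adjusted p = 0.083).

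Cd274, Cd86, Cd40 and Cd80 were again high in M1-like macrophages. Untransfected M1-like cells held 2166, 1968 and 1805 CPM of Cd274 against 119, 113 and 109 CPM in M0 and 227, 205 and 185 CPM in M2-like cells. For Cd86 the values were 110.3, 114 and 112 CPM in M1-like, 9.66, 11.0 and 8.25 CPM in M0 and 4.44, 3.87 and 3.44 CPM in M2-like cells, so that IL-4 treated cells lay below M0 (log2 fold change -1.30 ± 0.16, adjusted p = 3.2e-07). Cd40 measured 62.9, 59.8 and 64.7 CPM in M1-like cells, 5.34, 6.58 and 4.57 CPM in M0 and 3.51, 3.67 and 3.04 CPM in M2-like cells. No M2-like sample reached an M0 sample for Cd40, although the difference did not pass the test (-0.69 ± 0.27, adjusted p = 0.0641), and it did so without the filter (0.00166), with DESeq2 (0.0326), with only these groups fitted (0.0294) and with a replicate block (0.0456). Cd80 was 2.55-fold higher in M1-like than in M0 cells (1.35 ± 0.14, adjusted p = 9.12e-10).

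Pdcd1lg2 was called with IL-4 and not with LPS and IFNγ in this experiment, in which it was counted with few reads. M2-like cells held 2.36, 2.45 and 2.58 CPM (33, 38 and 39 reads) against 0.366, 0.310 and 0.614 CPM in M0 (5, 5 and 9 reads), a log2 fold change of 2.50 ± 0.49 (adjusted p = 0.000323). M1-like cells held 0.794, 0.469 and 1.64 CPM (13, 7 and 26 reads), which overlapped M0 and did not pass the test (1.17 ± 0.55, adjusted p = 0.0681). Without the filter (adjusted p = 0.0309) or without M1-like replicate 2 (1.49, adjusted p = 0.0259) it passed. M1-like cells were lower than M2-like cells for this gene (-1.33 ± 0.42, adjusted p = 0.00684), a call that was lost without M1-like replicate 2 (-1.02, adjusted p = 0.0512).

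Icosl was again lowest in M2-like cells, with 1, 5 and 5 reads against 20, 34 and 10 in M0 and 44, 16 and 40 in M1-like libraries (log2 fold change of M2-like against M0 -2.50 ± 0.53, adjusted p = 0.000854). With so few reads the 3 M0 values spread from 0.682 to 2.11 CPM, and the difference of M1-like from M0 could not be told from 0 at this depth (0.56 ± 0.38, adjusted p = 0.211). B cells also carry ICOS ligand, and the 6 B cell markers summed to between 9.89 and 35.0 CPM in M0, 7.08 and 15.4 CPM in M2-like and 0.794 and 1.54 CPM in M1-like libraries. The part of B cells in these Icosl values was not tested.

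Of the inhibitory receptors, Cd200r1 was low in M1-like cells of this experiment and Havcr2 was not. Cd200r1 measured 122, 127 and 111 CPM in M0, 145.5, 148 and 149 CPM in M2-like and 73.3, 68.3 and 63.6 CPM in M1-like macrophages (M1-like minus M0 -0.81 ± 0.07 on the log2 scale, adjusted p = 1.39e-11). Havcr2 measured 27.0, 29.5 and 34.3 CPM in M1-like, 24.9, 21.8 and 27.4 CPM in M0 and 15.3, 11.99 and 13.8 CPM in M2-like cells. M1-like cells were thus 2.21-fold above M2-like cells (1.14 ± 0.11, adjusted p = 8.89e-11), with no overlap, and slightly above M0 (0.29 ± 0.10, adjusted p = 0.0159). The small difference from M0 was lost when only these groups were fitted (adjusted p = 0.0598), without M0 replicate 2 (0.20, adjusted p = 0.148) and without M1-like replicate 3 (0.19, adjusted p = 0.143).

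**Figure D2:**
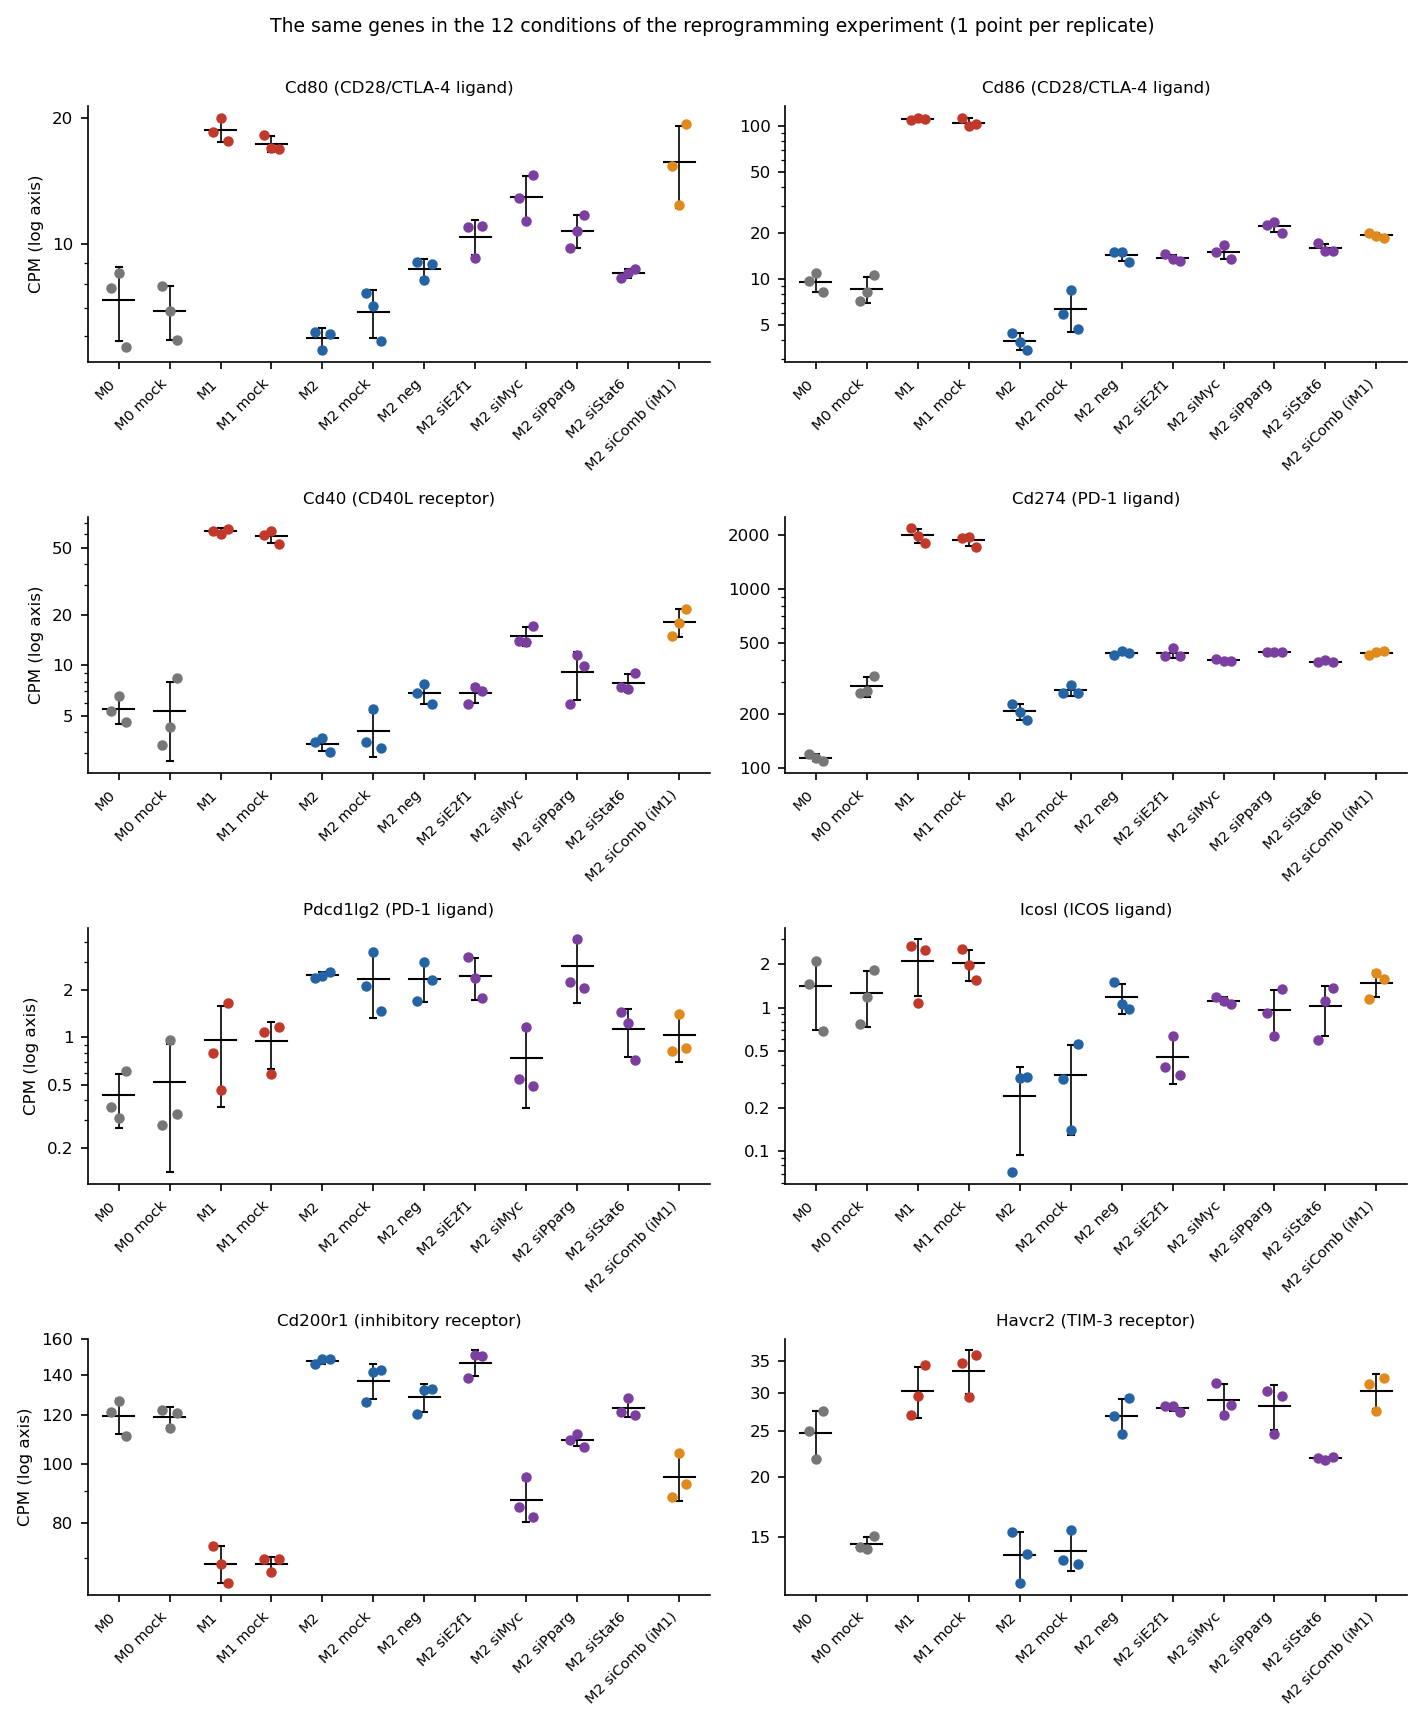
Level of each gene in CPM (log axis) in the 3 replicates of each of 12 conditions of the reprogramming experiment, with the line at the mean and bars of 1 SD. Grey marks M0, red M1-like, blue M2-like with no pool, mock or negative pool, purple the single siRNA pools and orange the combined pool (iM1). Cd274 and Havcr2 step up from M2-like mock to the negative pool, whereas Cd40 and Cd80 are highest among M2-like cells with the Myc and combined pools.

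Mock-transfected cells, given the reagent without siRNA, were compared with untransfected cells of the same kind. Their difference is called the mock effect. Since the harvest time of the untransfected cells is not given, reagent and time in culture cannot be told apart in it. In M0 macrophages 1 gene rose and 1 fell, where 11.7% of all genes rose and 8.66% fell. Cd274 rose 2.51-fold, from 119, 113 and 109 CPM to 261.5, 267 and 327 CPM (log2 fold change 1.33 ± 0.08, adjusted p = 3.29e-13), and Havcr2 fell from 24.9, 21.8 and 27.4 CPM to 14.3, 14.1 and 15.02 CPM (-0.77 ± 0.11, adjusted p = 2.77e-06). In M1-like macrophages none of the 8 genes was called, where 0.0% of all genes were called by edgeR, with 438 of 14172 genes at an unadjusted p under 0.05, and DESeq2 called 0 as well. In M2-like macrophages 2 genes rose and none fell, where 1.67% of all genes rose and 0.0988% fell. They were Cd274, from 227, 205 and 185 to 260.2, 290.2 and 259.7 CPM (0.39 ± 0.08, adjusted p = 0.00247), and Cd86, from 4.44, 3.87 and 3.44 to 5.95, 8.48 and 4.74 CPM (0.71 ± 0.17, adjusted p = 0.0153).

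The calls in M2-like cells were close to the threshold, while the values kept their direction. With only the compared groups fitted, neither was called, at 0.71 for Cd86 (adjusted p = 0.344) and 0.39 for Cd274 (adjusted p = 0.0807). Cd86 was also lost without mock replicate 2 (0.46, adjusted p = 0.3) or M2-like replicate 2 (0.70, adjusted p = 0.0672) or 3 (0.62, adjusted p = 0.147), and Cd274 without M2-like replicate 3 (0.32, adjusted p = 0.0547). Whether the contrast between M1-like and M2-like cells differed between mock and untransfected cells was tested as an interaction, with the same limit of harvest time. It called 2 of the 8 genes, both toward a smaller contrast in mock cells, and 1.13% of all genes. For Cd86 the contrast was smaller by -0.79 ± 0.20 on the log2 scale (adjusted p = 0.0387) and for Cd274 by -0.48 ± 0.11 (adjusted p = 0.016). With only the compared groups fitted neither was called, at -0.78 (adjusted p = 0.203) and -0.48 (adjusted p = 0.304). The call of Cd86 was also lost without replicate 1, 2 or 3 of M1-like, 2 or 3 of M1-like mock, 2 of M2-like mock or 2 or 3 of M2-like cells (-0.54 to -0.80). The call of Cd274 was lost without replicate 1 of M1-like, 3 of M1-like mock, 2 of M2-like mock or 3 of M2-like cells (-0.41 to -0.43). A further interaction, added after the values were seen, compared the mock effect in M0 with that in M2-like cells, and it called 3 of the 8 genes and 5.66% of all genes. The mock effect was larger in M0 for Cd274 (by 0.93 ± 0.11, adjusted p = 2.12e-06) and lower in M0 for Cd86 (-0.86 ± 0.22, adjusted p = 0.015) and Havcr2 (-0.80 ± 0.16, adjusted p = 0.00164). Of these, the call of Cd86 was lost with only the compared groups fitted (-0.87, adjusted p = 0.129) and without M0 replicate 2 (-0.76), M2-like mock replicate 2 (-0.61) or M2-like replicate 3 (-0.78).

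The negative siRNA pool, which has no intended target, raised 5 of the 8 genes over mock in M2-like macrophages and lowered none, against 6.67% and 5.03% of all genes. Havcr2 went from 13.4, 15.5 and 13.2 CPM to 26.8, 24.6 and 29.2 CPM (log2 fold change 0.94 ± 0.11, adjusted p = 2.91e-07). Cd86 went from 5.95, 8.48 and 4.74 to 15.1, 15.01 and 13.0 CPM (1.17 ± 0.14, adjusted p = 6.34e-07), and Cd274 from 260.2, 290.2 and 259.7 to 424.5, 450.4 and 439 CPM (0.70 ± 0.08, adjusted p = 1.98e-07). In all 3 genes every sample with the negative pool lay above every mock sample. Icosl (5, 2 and 8 reads with mock, 25, 16 and 17 with the negative pool) rose by 1.78 ± 0.51 (adjusted p = 0.0187) and Cd40 by 0.75 ± 0.25 (adjusted p = 0.0477), without overlap of the samples. The call of Icosl was lost without mock replicate 1 (1.74, adjusted p = 0.0667) or 2 (1.43, adjusted p = 0.0937) or negative pool replicate 1 (1.56, adjusted p = 0.091). The call of Cd40 was lost with RLE normalization (adjusted p = 0.0525), without mock replicate 1 or 3 and without each replicate of the negative pool in turn, with values from 0.61 to 0.85. Pdcd1lg2 (-0.01 ± 0.38), Cd200r1 (-0.09 ± 0.07) and Cd80 (0.35 ± 0.15) did not pass the test. The 4 eosinophil markers moved with these rises, from between 18.8 and 20.1 CPM in sum with mock to between 33.5 and 38.8 CPM with the negative pool, nearly all of it Siglecf, with Epx and Prg2 at 0 with the negative pool, and their part in the rises was not tested.

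Knockdown of the 4 regulators together was set against the negative pool, since both sides were transfected with siRNA. The Myc siRNA came from another maker than the pools against E2f1, Pparg and Stat6. The maker of the negative pool is not given in the sources used here. Effects of the reagent itself may therefore differ between the sides. In iM1 macrophages 3 of the 8 genes rose (Cd40, Cd80 and Cd86) and 2 fell (Pdcd1lg2 and Cd200r1), against 12.5% and 13.9% of all genes. Cd40 rose from 6.86, 7.74 and 5.89 CPM with the negative pool to 14.9, 17.7 and 21.6 CPM (log2 fold change 1.41 ± 0.21, adjusted p = 5.6e-06), a 2.66-fold change without overlap. Cd80 rose from 9.03, 8.20 and 8.92 to 15.3, 12.4 and 19.3 CPM (0.84 ± 0.14, adjusted p = 2.53e-05), and Cd200r1 fell from 121, 132 and 133 to 88.0, 104 and 92.7 CPM (-0.44 ± 0.07, adjusted p = 1.57e-05). These 3 genes, all without overlap, kept their calls in every alternative fit that was run, and Cd40 alone also passed a minimum log2 fold change of 1.

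The calls of Cd86 and Pdcd1lg2 with the combined pool were less firm. Cd86 rose from 15.1, 15.01 and 13.0 to 20.2, 19.1 and 18.7 CPM (0.43 ± 0.12, adjusted p = 0.00926), a call lost without negative pool replicate 3 (0.36, adjusted p = 0.0652). Pdcd1lg2 fell from 28, 45 and 40 reads to 13, 26 and 14 (-1.15 ± 0.41, adjusted p = 0.0367) and was lost without combined pool replicate 1 (-1.02, adjusted p = 0.123) or 3 (-1.03, adjusted p = 0.118) or negative pool replicate 2 (-0.93, adjusted p = 0.151) or 3 (-1.16, adjusted p = 0.0754). Cd274 did not pass the test, with 425, 442 and 447 CPM in iM1 cells and 424.5, 450.4 and 439 CPM with the negative pool (0.00 ± 0.08, adjusted p = 0.992). Icosl (0.34 ± 0.39) and Havcr2 (0.17 ± 0.10) did not pass the test either.

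Against mock in place of the negative pool, all 8 genes were called, 6 higher and 2 lower, against 19.0% and 18.1% of all genes. Both comparisons share the iM1 samples, and their log2 fold changes are given side by side. Cd274 stood at 0.70 ± 0.08 above mock and 0.00 ± 0.08 above the negative pool, Havcr2 at 1.11 ± 0.11 and 0.17 ± 0.10, and Icosl at 2.11 ± 0.49 and 0.34 ± 0.39. These 3 genes passed the test against mock and not against the negative pool, and the controls themselves differed for each of them, as given for the negative pool. For Cd80 (1.19 ± 0.14 and 0.84 ± 0.14), Cd86 (1.60 ± 0.14 and 0.43 ± 0.12), Cd40 (2.16 ± 0.23 and 1.41 ± 0.21), Pdcd1lg2 (-1.16 ± 0.41 and -1.15 ± 0.41) and Cd200r1 (-0.53 ± 0.07 and -0.44 ± 0.07) a call was made against each control. The call of Pdcd1lg2 against mock was lost without combined pool replicate 1 (-1.03, adjusted p = 0.0933) or 3 (-1.04, adjusted p = 0.0927) or mock replicate 2 (-0.78, adjusted p = 0.203).

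Set directly against M1-like mock cells, iM1 macrophages were lower for 3 of the 8 genes and higher for 1, against 25.6% and 27.2% of all genes. Cd86 was 5.48-fold lower (20.2, 19.1 and 18.7 CPM against 114, 100.4 and 104 CPM, log2 fold change -2.45 ± 0.12, adjusted p = 8.23e-18). Cd274 was 4.24-fold lower (-2.08 ± 0.08, adjusted p = 1.35e-19) and Cd40 3.22-fold lower (-1.69 ± 0.18, adjusted p = 3e-09). Cd200r1 was 1.39-fold higher (0.47 ± 0.07, adjusted p = 1.08e-06). Cd80 (-0.15 ± 0.13), Havcr2 (-0.14 ± 0.10), Icosl (-0.44 ± 0.37) and Pdcd1lg2 (0.15 ± 0.45) did not pass the test, which does not show that the cells were alike. Without combined pool replicate 3, Cd80 was called lower in iM1 cells (-0.33, adjusted p = 0.0451).

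**Figure D3:**
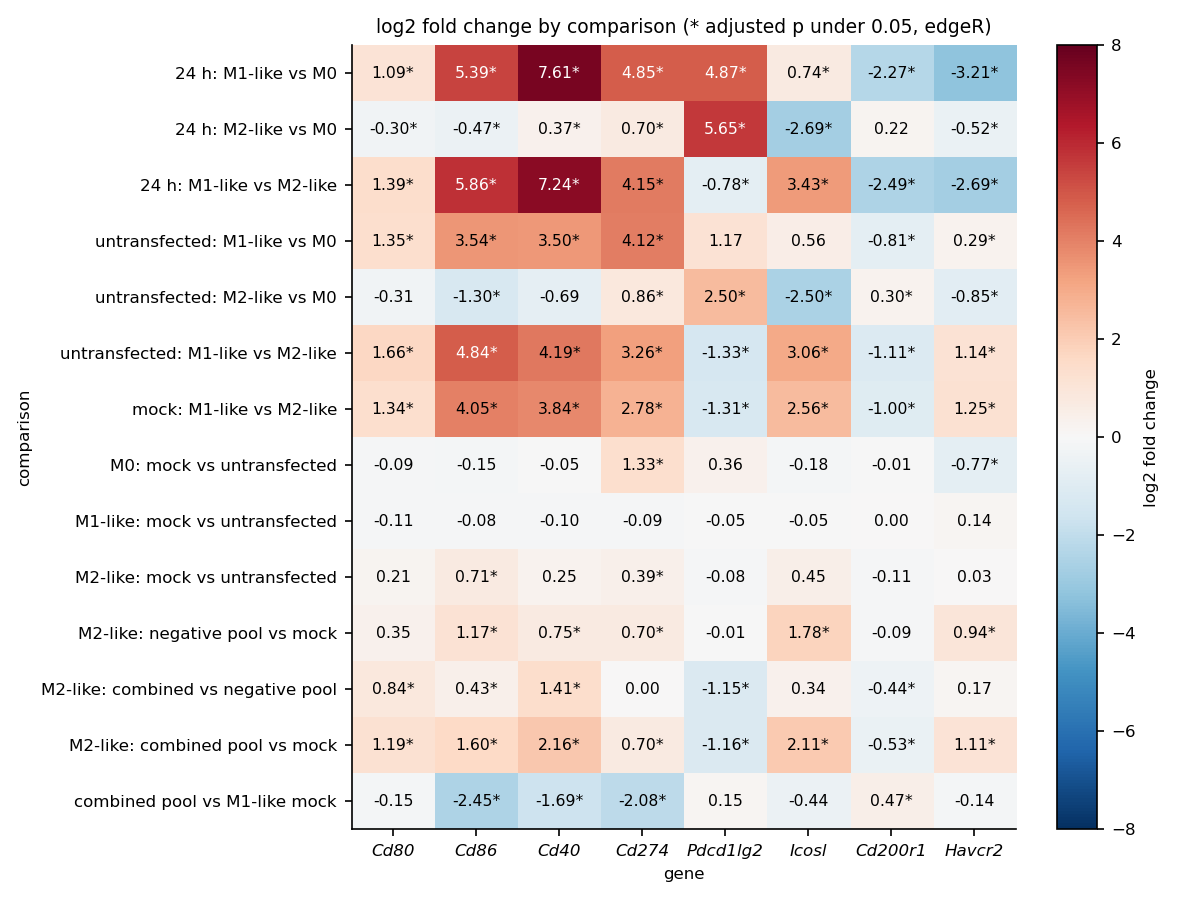
Log2 fold change of each gene (columns) in 14 comparisons (rows), coloured from blue (lower) to red (higher) on a scale set evenly about 0, with an asterisk where the adjusted p was under 0.05 in edgeR. LPS and IFNγ give the strongest colours at 24 h (7.61 for Cd40), mock transfection of M1-like cells gives no call, and iM1 cells are below M1-like mock for Cd86, Cd274 and Cd40.

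Single siRNA pools were compared with the negative pool to ask which pool each change went with. The limit on the Myc siRNA, which came from another maker, holds here too. The Myc pool called 4 of the 8 genes, 2 higher and 2 lower, against 13.9% and 15.6% of all genes. MYC is a transcription factor for growth and metabolism that IL-4 induces in macrophages. Cd40 rose to 14.0, 13.7 and 17.2 CPM (1.13 ± 0.21, adjusted p = 0.000115) and Cd80 to 12.9, 11.3 and 14.6 CPM (0.56 ± 0.14, adjusted p = 0.00239). Cd200r1 fell to 85.0, 95.0 and 81.6 CPM (-0.56 ± 0.07, adjusted p = 2.69e-07) and Pdcd1lg2 to 11, 23 and 8 reads (-1.63 ± 0.42, adjusted p = 0.00397). For each of the 4 genes no Myc pool sample overlapped the negative pool, and none of these calls was lost in the alternative fits that gave a value, where Pdcd1lg2 had none under the minimum of 10 counts in each sample. Asking for a log2 fold change of 1 or more left Cd40 and Pdcd1lg2.

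The Pparg pool raised 1 gene and lowered 1, against 2.71% and 3.03% of all genes. PPARγ is a nuclear receptor for fatty acids that shapes the IL-4 response. Cd86 rose to 22.6, 23.8 and 20.05 CPM (0.63 ± 0.12, adjusted p = 0.00123), above every sample with the negative pool, and with the Myc pool it averaged 15.1 ± 1.54 CPM (SD, n = 3, 0.08 ± 0.12, adjusted p = 0.69). Cd200r1 fell to 109.5, 112 and 107 CPM (-0.23 ± 0.07, adjusted p = 0.039), a call lost without the filter (adjusted p = 0.134), without each Pparg pool replicate in turn and without negative pool replicate 2 or 3, with values from -0.21 to -0.25. With the Pparg pool the 6 neutrophil markers summed to between 88.0 and 113 CPM, against 28.6 to 44.3 CPM with the negative pool. The sum was 56.0 to 62.7 CPM with the combined pool and 52.6 to 61.6 CPM with the Myc pool, also above the negative pool. With the Pparg and negative pools Mmp8 averaged 93.4 and 31.3 CPM, S100a8 4.04 and 4.38 CPM and Camp 0.0644 and 0.0201 CPM, and Ly6g, S100a9 and Retnlg were at 0. The part of neutrophils in the values of these 3 pools was not tested.

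Neither the E2f1 pool nor the Stat6 pool called any of the 8 genes, where 0.91% and 1.51% of all genes were called in either direction. Stat6 encodes the factor activated by IL-4, and the pool against it left Pdcd1lg2 at 22, 19 and 11 reads (1.45, 1.24 and 0.716 CPM), below every sample with the negative pool, with a log2 fold change of -1.02 ± 0.41 (adjusted p = 0.262). Havcr2 measured 21.9, 21.7 and 22.0 CPM with the Stat6 pool, again below every sample with the negative pool (-0.30 ± 0.10, adjusted p = 0.169). With the E2f1 pool Icosl was at 6, 11 and 5 reads against 25, 16 and 17 (-1.35 ± 0.47, adjusted p = 0.224). Neither difference passed the test across all genes. Cd274 lay within 0.17 on the log2 scale of the negative pool with each of the 5 pools, from -0.17 ± 0.08 (Stat6) to 0.01 ± 0.08 (Pparg). Whether the combined pool differed from the sum of the single pools was tested as a contrast, which called none of the 8 genes and 1.69% of all genes. The largest value was that of Icosl (2.29 ± 1.11, adjusted p = 0.369). With the combined pool E2f1, Myc, Pparg and Stat6 were at 45.2%, 36.8%, 31.0% and 55.1% of the M2-like mock mean. With the pool against each they were at 18.9%, 35.4%, 24.1% and 27.9%. Knockdown thus differed between the sides of this contrast, and the lack of a call does not show that the effects add up.

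**Figure D4:**
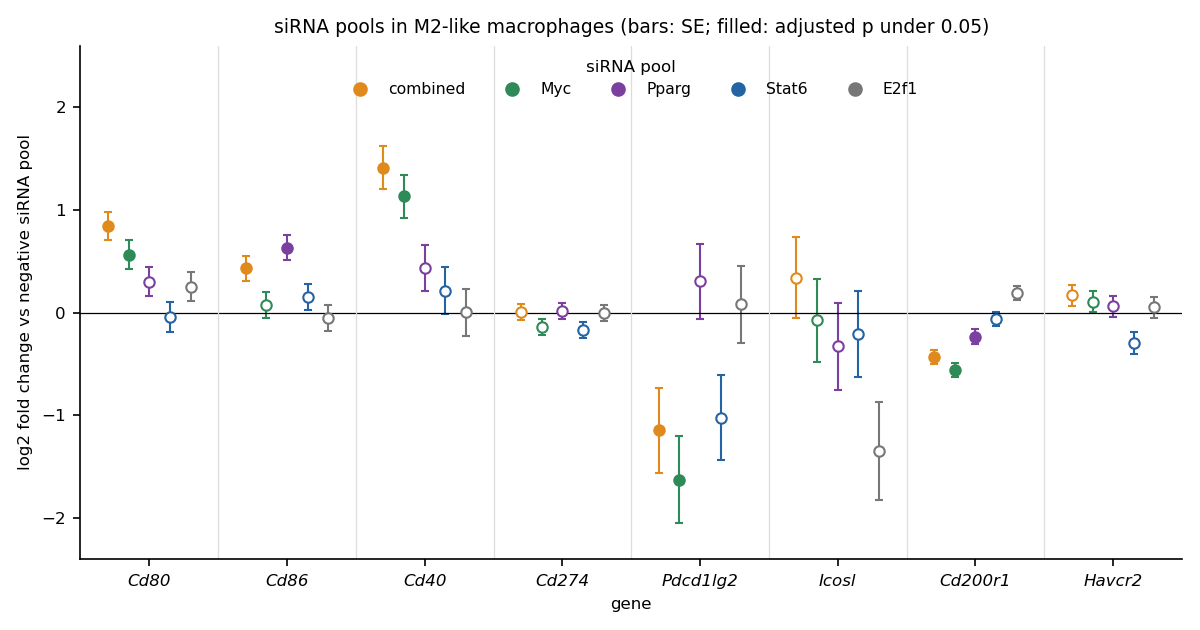
Log2 fold change against the negative siRNA pool for each gene with the combined pool (orange) and the pools against Myc (green), Pparg (purple), Stat6 (blue) and E2f1 (grey) in M2-like macrophages, with bars of 1 SE and filled points at an adjusted p under 0.05. Points of the Myc and combined pools lie above 0 for Cd80 and Cd40 and below 0 for Pdcd1lg2 and Cd200r1, and Cd274 stays near 0 with every pool.

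Across the 12 conditions of the reprogramming experiment, conditions were put in order of their mean level, and neighbours were checked for overlap of their samples. This is a description and not a test. Cd274 was highest in M1-like (1980 CPM) and lowest in M0 cells (114 CPM), and neighbours did not overlap in 5 places. These lay between M1-like mock (1858 CPM) and the Pparg pool (442), between the E2f1 (436) and Myc (397) pools, between the Stat6 pool (390.3) and M0 mock (285), between M2-like mock (270.0) and M2-like cells (206), and between these and M0. Cd86 and Cd40 also had M1-like cells apart from the next condition, the Pparg pool for Cd86 and the combined pool for Cd40. For Cd80 the order M1-like (18.8 CPM), M1-like mock (17.3), combined pool (15.7), Myc pool (12.9), Pparg pool (10.7) and E2f1 pool (10.4) overlapped from each condition to the next, and it broke before the negative pool (8.72). Pdcd1lg2 broke once, between the negative pool (2.33 CPM) and the Stat6 pool (1.14), a comparison that did not pass edgeR's test (adjusted p = 0.262). Icosl broke nowhere, with neighbours overlapping from 2.09 to 0.242 CPM. Cd200r1 was highest in M2-like (148 CPM) and lowest in M1-like cells (68.4 CPM), with the combined (95.0) and Myc (87.2) pools apart from the Pparg pool above and M1-like mock below. Havcr2 broke once, between the Stat6 pool (21.9 CPM) and M0 mock (14.5).

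As a description over the means of these 12 conditions, which share depth and cell source, Cd40 went with Cd86 (r = 0.958), Cd80 (0.949) and Cd274 (0.898) and against Cd200r1 (-0.952). M1-like and M1-like mock cells lay far from the other conditions for Cd40 (62.5 and 58.2 CPM, next 18.1) and Cd274 (1980 and 1858 CPM, next 442). Correlations without these conditions were not computed. Pdcd1lg2 went with none of the other ligands (r from -0.65 with Icosl to 0.00978 with Cd274). Among 10132 genes with a mean log2 CPM of at least 2, the pattern most like Cd40 was that of C1ra (r = 0.993), for Cd86 Rabepk (0.987), for Cd80 Nop14 (0.982), for Cd274 Samhd1 (0.99) and for Cd200r1 Arhgap18 (0.99). For Havcr2 it was Itga5 (0.944), for Icosl Tuba4a (0.94) and for Pdcd1lg2 Tspan5 (0.925).

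Genes that work with these 8 were counted in the same libraries. Of the CD40 signalling genes, TRAF adaptors, NIK (Map3k14) and the cIAP ligases, 8 of 8 rose with LPS and IFNγ at 24 h, against 35.4% of all genes, led by Traf1 (5.36 ± 0.15 on the log2 scale, adjusted p = 1.48e-11) and Birc3 (3.13 ± 0.07, adjusted p = 1.91e-12), and the median over the list was 1.46 against -0.0368 over all genes. In iM1 cells against the negative pool 4 of 8 rose, against 12.5% of all genes, among them Traf1 (0.77 ± 0.18, adjusted p = 0.0017) and Traf3 (0.75 ± 0.07, adjusted p = 1.59e-09). Of the co-stimulatory ligands of the TNF superfamily, 4 of 7 were tested, and 3 of these rose with LPS and IFNγ at 24 h, against 35.4% (Tnfsf4, Tnfsf9 and Tnfsf15, named after their values were seen).

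Of 7 other genes of the B7 and butyrophilin families 2 were tested, and both fell with LPS and IFNγ, as 37.5% of all genes did, Vsir, which encodes the checkpoint protein VISTA, from 679 ± 15.97 to 75.8 ± 9.66 CPM (SD, n = 3, log2 fold change -3.16 ± 0.09, adjusted p = 2.65e-11). Vsir also fell with the combined pool (685 ± 19.5 to 411 ± 25.3 CPM, -0.74 ± 0.10, adjusted p = 1.67e-06) and with the Myc pool (407 ± 24.6 CPM, -0.75 ± 0.10, adjusted p = 1.1e-06). Of the genes around the CD200 receptor, 1 of 7 rose with LPS and IFNγ at 24 h, against 35.4% of all genes, the ligand Cd200 (1.04 ± 0.07, adjusted p = 3.55e-08), and 3 fell, against 37.5%, among them the adaptor Dok2 (-0.73 ± 0.12, adjusted p = 0.000136). In iM1 cells 3 of 6 tested fell and none rose, against 13.9% and 12.5% of all genes, Dok2 by 0.77 on the log2 scale (SE 0.10, adjusted p = 4.67e-07) and Rasa1 by 0.52 (SE 0.09, adjusted p = 8.11e-05). Cd200r1 has close paralogs, so that reads could be divided among them.

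TIM-3 binds galectin-9 and CEACAM1, and 5 of 7 genes of its ligands and family were tested, of which 2 rose and 2 fell with LPS and IFNγ at 24 h, shares near the 35.4% and 37.5% of all genes. Lgals9, which encodes galectin-9, rose from 59.0 ± 3.14 to 577 ± 11.3 CPM (SD, n = 3) with LPS and IFNγ at 24 h (3.29 ± 0.08, adjusted p = 3.58e-12), while Ceacam1 fell from 28.1 ± 0.554 to 5.29 ± 0.202 CPM (-2.41 ± 0.07, adjusted p = 1.81e-11). Lgals9 stood higher in mock than in untransfected M2-like cells by 1.78 ± 0.16 (adjusted p = 8.56e-10). With the negative pool it stood above mock by 0.94 ± 0.15 (adjusted p = 4.3e-05). Side by side with it, Havcr2 stood at 0.03 ± 0.12 and 0.94 ± 0.11 in these comparisons. Of the other inhibitory receptors and ligands, 11 of 12 were tested at 24 h, 5 rose and 6 fell with LPS and IFNγ, against 35.4% and 37.5% of all genes, with Pilra (4.10 ± 0.14, adjusted p = 7.07e-11) and Pvr (2.51 ± 0.09, adjusted p = 1.24e-10) the largest rises above the level limit. In iM1 cells 3 of 12 rose, against 12.5% of all genes, among them Pilra (2.04 ± 0.29, adjusted p = 3.6e-06), and 3 fell, against 13.9%, among them Vsig4 (-0.91 ± 0.26, adjusted p = 0.00911).

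The T cell partners of the ligands were checked too. Ctla4, Icos, Pdcd1 and Cd40lg averaged below 1 CPM in all 15 conditions, but Cd28, the receptor for CD80 and CD86, was counted in all but the M1-like conditions at more than trace level. At 24 h it averaged 12.7 CPM in M0, 0.0904 CPM with LPS and IFNγ and 6.29 CPM with IL-4, and 42.6, 66.6, 26.8 and 23.3 CPM in M2-like cells without transfection, with the negative pool, with the combined pool and with the Myc pool. The combined pool (-1.32 ± 0.17, adjusted p = 3.63e-07) and the Myc pool (-1.51 ± 0.17, adjusted p = 3.45e-08) lowered Cd28 against the negative pool. The 6 T cell markers stayed at or below 6.36 CPM in sum in every sample.

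Markers of other cells moved with some conditions and are given beside these values. The 6 dendritic cell markers summed to between 29.5 and 40.5 CPM in M1-like, 4.79 and 9.04 CPM in M0 and 4.61 and 12.4 CPM in M2-like samples at 24 h, in the direction of Cd40, Cd86 and Cd80. From M0 to M1-like samples the mean of Ccr7 went from 2.37 to 31.8 CPM, Zbtb46 from 0.789 to 2.05 CPM, Xcr1 from 0.0570 to 0.575 CPM, Flt3 from 0.200 to 0.205 CPM, Clec9a from 0.610 to 0.584 CPM and Cd209a from 2.24 to 0.0494 CPM. The 4 eosinophil markers summed to between 0.270 and 0.817 CPM in M1-like samples at 24 h and 15.6 and 17.0 CPM in M0, in the direction of Cd200r1 and Havcr2, and this was Siglecf (16.4 CPM in M0 on average), with Prg2 at 0 and Epx at 0.00613 CPM. In the reprogramming experiment they summed to between 0.611 and 1.70 CPM in M1-like and 16.1 and 24.3 CPM in M0 samples, again in the direction of Cd200r1 and against that of Havcr2. Mesothelial or fibroblast markers, mostly Col1a1, summed to between 122.9 and 181.5 CPM with the negative pool, 106 and 162 CPM with the combined pool and 65.2 and 116 CPM with M2-like mock. The 6 mast cell and the 4 NK cell markers summed to at most 9.80 and 2.92 CPM in any sample. The part of the other cells in the results was not tested.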

How the data were processed

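RNA sequencing data of 54 libraries of mouse peritoneal macrophages were used. According to the methods and labels, the authors used Trimmomatic for trimming, TopHat2 for mapping to GRCm38/mm10 and featureCounts for counting, and deposited whole-number read counts per gene without normalization. Versions, annotation, strand and multimapping settings are not given in the sources used here.

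Groups were taken from the sample titles. Technical replicates of a mouse and condition (chi-square per gene between their counts 1.07 to 1.10, against 3.63 to 52.4 between mice) were summed. Genes were filtered with filterByExpr (minimum count 10, minimum total count 15), scaled by TMM and tested in edgeR (quasi-likelihood, two-sided, Benjamini-Hochberg adjusted over all genes of the fit), in 1 model per experiment with 1 coefficient per condition. The study names DESeq2, which was run here as an alternative, beside RLE scaling, leaving the filter off, asking for 10 counts or more in each sample, a replicate block, only the compared groups, also asking for a log2 fold change of 1 or more in size, technical replicates kept apart and leaving out each replicate. A standard error is the log2 fold change divided by the square root of F. The tests were tested on simulated data. In the polarization experiment the numbers pair the samples, since they name the same mice (median r of same-numbered deviations 0.25, lowest -0.0559, highest 0.425, over 9 pairs). An interaction, of the mock effect in M0 and M2-like cells, was added after the values were seen.

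Symbols and coordinates came from GENCODE M21 and promoters from RefSeq (GRCm38.p6). The 8 genes, the pathway lists and the marker lists were chosen with earlier results of these data known. Genes outside the 8 are named with values when they are the 2 most changed called genes of a list with a mean log2 CPM of at least 2, the closest pattern to a member, an siRNA target or a receptor of the ligands. Software was edgeR 4.0.16, limma 3.58.1 and DESeq2 1.42.0 in R 4.3.3, and matplotlib 3.10.9, pandas 2.3.3, SciPy 1.17.1 and NumPy 2.4.6 in Python 3.11.15.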

Additional observations from a re-analysis of the deposited data

Results flagged for a closer look

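Havcr2 went in opposite directions in the 2 experiments. M1-like against M0 gave -3.21 on the log2 scale at 24 h, with every M1-like sample below the M0 mean, and 0.29 in the reprogramming experiment, with every M1-like sample above it, although the samples of these groups overlapped. M1-like against M2-like gave -2.69 and 1.14 in the same way. The difference between the experiments was not tested, since sequencing provider and read type differ with it and time may differ too.

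Cd40 in M2-like against M0 cells gave 0.37 at 24 h and -0.69 in the reprogramming experiment, with every M2-like sample on the same side of the M0 mean within each. The difference was not tested, and the second value did not pass the test of its own (adjusted p = 0.0641).

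The contrast between M1-like and M2-like cells differed between mock and untransfected cells for Cd86 (-0.79) and Cd274 (-0.48) in the interaction test. In a test added after the values were seen, the mock effect differed between M0 and M2-like cells for Cd274 (0.93), Cd86 (-0.86) and Havcr2 (-0.80).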

How the results depend on the processing

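Of 2186 repeats of the tests of single genes under an alternative, 2116 kept their side of the threshold, 61 lost a call and 9 gained a call. None turned the direction of a value called in either fit. Values called in neither fit count among the 2116 even where their direction turned. At least 10 counts in every sample left out Icosl and Pdcd1lg2 in the reprogramming experiment. When a log2 fold change of 1 or more in size was also asked for, the number of the 8 genes called became 2 for M2-like against M0 at 24 h (from 7) and 3 in the reprogramming experiment (from 6), 1 and 0 for mock in M0 and in M2-like cells (from 2 each), 2 for the negative pool against mock (from 5), 2 for the combined pool (from 5), 2 for the Myc pool (from 4), 0 for the Pparg pool (from 2) and 0 for both interactions of the mock effect (from 2 and 3). With only the compared groups it became 0 for mock in M2-like cells and 0 for the mock interaction of M1-like and M2-like cells, and without the filter 1 for the Pparg pool. Leaving out each replicate in turn gave 0 to 2 for mock in M2-like cells, 3 to 4 for the negative pool against mock, 3 to 5 for the combined pool, 1 to 2 for the Pparg pool and 0 to 2 for that mock interaction. Without M0 replicate 3, Cd80 was called lower in untransfected M2-like than M0 cells (-0.46, adjusted p = 0.0483). With technical replicates kept apart, Cd200r1 was called higher in M2-like than M0 cells at 24 h (0.22, adjusted p = 0.0174). The cause of these changes was not tested.

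With a replicate block, the paired fit gave 8, 7 and 8 calls among the 8 genes in the 3 comparisons at 24 h, as without it. In the reprogramming experiment the replicate block added the call of Cd40 in M2-like against M0 cells (-0.69, adjusted p = 0.0456) and changed no other. Replicates there share only a number: deviations correlated at a median r of 0.183 (-0.249 to 0.627, 198 pairs) with the same number and -0.0829 with another.

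Counts over all genes moved by over 1.5 times in some comparisons. Calls of M2-like against M0 at 24 h went from 4499 to 7198 with technical replicates apart and to 2951 without the M0 sample of mouse 2. For the E2f1 pool they went from 129 to 237 without the filter, 236 with the replicate block, 219 with DESeq2, 342 with only the compared groups and 45 to 86 leaving out replicates. For the Stat6 pool 214 became 380 (block), 363 (DESeq2) and 92 to 151 (leaving out replicates), and for the combination contrast 239 became 455, 391, 478 (only the compared groups) and 48 to 279. Leaving out replicates gave 359 to 703 for the Pparg pool (from 814) and 1042 to 1537 for the negative pool against mock (from 1658). Without the filter, mock in M1-like cells gave 42 (from 0), mock in M2-like cells 387 (from 251) and the mock interaction 306 (from 160), and the added interaction gave 495 with only the compared groups (from 802).

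Depth limits Icosl and Pdcd1lg2 in the reprogramming experiment, where single libraries held as few as 1 and 4 reads.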
